A study of Homo sapiens with 2 samples.

Results

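Stearoyl-CoA desaturase (SCD) was examined together with 7 other genes of cholesterol and fatty acid synthesis, HMGCS1, INSIG1, SQLE, FASN, SREBF2, FDFT1 and IDI1, in lists of RNA peaks from HEK293T cells. The 8 genes were found by matching the Ensembl identifier of each peak to the gene symbol in GENCODE release 29. All 8 had peaks in both libraries, as did most of the 13209 protein-coding genes with a peak in either. Of these, 12237 had a peak in replicate 1 and 12327 in replicate 2. They held 146 peaks with 2380 reads in replicate 1 and 154 peaks with 2462 reads in replicate 2. SCD was chosen by its number of 3′ UTR peaks found in both libraries, a value measured in these same data, so that number is a description and is not tested here.

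The series held 2 small-RNA libraries of 1 group labelled TRACER, a word the labels do not explain. Both came from HEK293T, an established human embryonic kidney line grown in DMEM with fetal bovine serum. Both received doxycycline at 3 ug/mL for 24 hours, and the RNA was cytoplasmic and taken with Trizol into a Qiagen microRNA library protocol. The design text names cis-acting elements of RNA and their association with CCR4-NOT, the complex that shortens poly(A) tails and starts the decay of many messenger RNAs. No transgene is named, and there is no library without doxycycline and no input. Whether the replicates come from separate cultures is not stated, and their spread may be only technical.

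Cholesterol is built from acetyl-CoA through the mevalonate pathway, and fatty acids are built from the same precursor by fatty acid synthase. The transcription factor SREBP-2, the product of SREBF2, switches on the sterol genes when membranes run low in cholesterol, and INSIG proteins hold it back in the endoplasmic reticulum when sterol is plentiful. SREBP proteins also drive FASN and SCD, whose product puts the double bond into newly made saturated fatty acids. Most cultured cells express these genes, since growing membranes need both products.

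By summed reads the 8 genes ran from place 57 (SCD) to place 2641 (SREBF2) among the 13209. Peaks of SREBF2 were weak, with a median of 4 reads in each library. In each library a read count was the whole number of reads the authors' peak caller gave for a peak, summed over the peaks of the gene. Replicate 1 listed 96682 distinct peaks with 1585442 reads and replicate 2 listed 105125 with 1663899. A read can count in several neighbouring peaks and the number of mapped reads is not known, so these sums are not depth, and intervals given below cover counting error only. With no input library, a high read count cannot be told apart from a high RNA level. Of the marker lists, all 5 genes for this kidney line had peaks (186 and 251 reads in replicates 1 and 2). Most of these reads were of NEFL (83 and 139) and NEFM (75 and 68). PAX2 held 10 and 16, SALL1 15 and 24 and LHX1 only 3 and 4. The lists for hepatocytes, adipocytes, steroid-making cells and blood were all at 0 reads.

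The following 30-nt windows are shown because they hold the summits of the strongest 3′ UTR regions of SCD that were found in both libraries. A region is a set of overlapping peaks of 1 gene, and it was found in both libraries when a peak of one overlapped a peak of the other by at least 1 nt on the same strand. Its reads in a library are those of its highest peak there. Each window runs 5′ to 3′ from 15 nt before the summit to 14 nt after it, from GENCODE 29 transcripts on GRCh38, and capitals mark UGUA or runs of at least 2 G.
SCD chr10:100363487-100363516 (+), 63 and 59 reads: cUGUAguuuaguucuguugaccugugcacc
SCD chr10:100361495-100361524 (+), 61 and 54 reads: uaugaaUGUAaGGaugaGGGaagcgaagca
SCD chr10:100362089-100362118 (+), 60 and 42 reads: acucugaaGGagaGGaGGaauuaguuGGGa
SCD chr10:100362217-100362246 (+), 57 and 41 reads: gagaacacguugccaGGGGcuugagaaGGu
SCD chr10:100362144-100362173 (+), 46 and 49 reads: caugagauGGagaGGcugaGGGacaGGauc
SCD chr10:100361973-100362002 (+), 48 and 37 reads: GGaaGGauuuaaGGaGGugaagucGGGuca
The first window has 7 G among its 30 bases and the other windows have 11 to 13.

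The strongest 3′ UTR windows of HMGCS1, INSIG1 and IDI1 are set beside them, to show where they are alike and where they are not.
HMGCS1 chr5:43289912-43289941 (-), 24 and 16 reads: aguuuugUGUAgaucuuuuuGGugcugaac
HMGCS1 chr5:43291040-43291069 (-), 13 and 20 reads: guuGGaGGaauGGGauaucuGGGGauaauu
INSIG1 chr7:155309130-155309159 (+), 53 and 57 reads: cuauGGaauuugcaaucugugauugccuug
INSIG1 chr7:155309673-155309702 (+), 46 and 46 reads: guuuGGuuuugugaUGUAacgaucuuugcu
INSIG1 chr7:155310012-155310041 (+), 44 and 37 reads: aauaaUGUAgccaaaagaaUGUAaauuuga
IDI1 chr10:1040167-1040196 (-), 26 and 44 reads: aauagaugagauuauGGaaugUGUAuauua
IDI1 chr10:1041172-1041201 (-), 7 and 10 reads: auauacagaaugugaauaUGUAGGuaaaug
The HMGCS1 windows have 8 and 12 G of 30, the INSIG1 windows 7, 8 and 5, and the IDI1 windows 7 each. Over the windows of all genes the median is 8. The second IDI1 window straddles the stop codon, with its summit 1 nt after it.

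SCD (ENSG00000099194, chromosome 10, 100347124 to 100364834, plus strand) carried the most reads of the 8 genes. It held 1107 reads in 30 peaks in replicate 1 and 1055 reads in 30 peaks in replicate 2, which placed it 57th by summed reads among the 13209 genes. Its 3′ UTR of 3901 nt makes up 72.8% of its transcript and held 57.5% and 50.5% of its peak reads (mean 54.0% ± 4.90, SD, n = 2). Its coding sequence of 1080 nt held 33.2% and 37.5%, and its 5′ UTR of 381 nt held 9.30% and 11.9%.

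Per length, the 3′ UTR came last among these parts of SCD. The 3′ UTR held 163 and 137 peak reads per kb, the coding sequence 341 and 367 and the 5′ UTR 270 and 331, so both other parts exceeded the 3′ UTR in each library. Of the 25 regions of SCD found in both libraries, 13 lay in the 3′ UTR, 9 in the coding sequence and 3 in the 5′ UTR, which is 3.33 per kb of 3′ UTR and 8.33 per kb of coding sequence. Of the 9 coding regions, 2 (100356744 to 100356765 and 100360734 to 100360745) lie on either side of 1 exon junction in both libraries, so a site that spans the junction would count as 2. The strongest region of SCD lay in the coding sequence, at chromosome 10, 100354563 to 100354633, with 74 reads in replicate 1 and 69 in replicate 2.

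**Figure D1:**
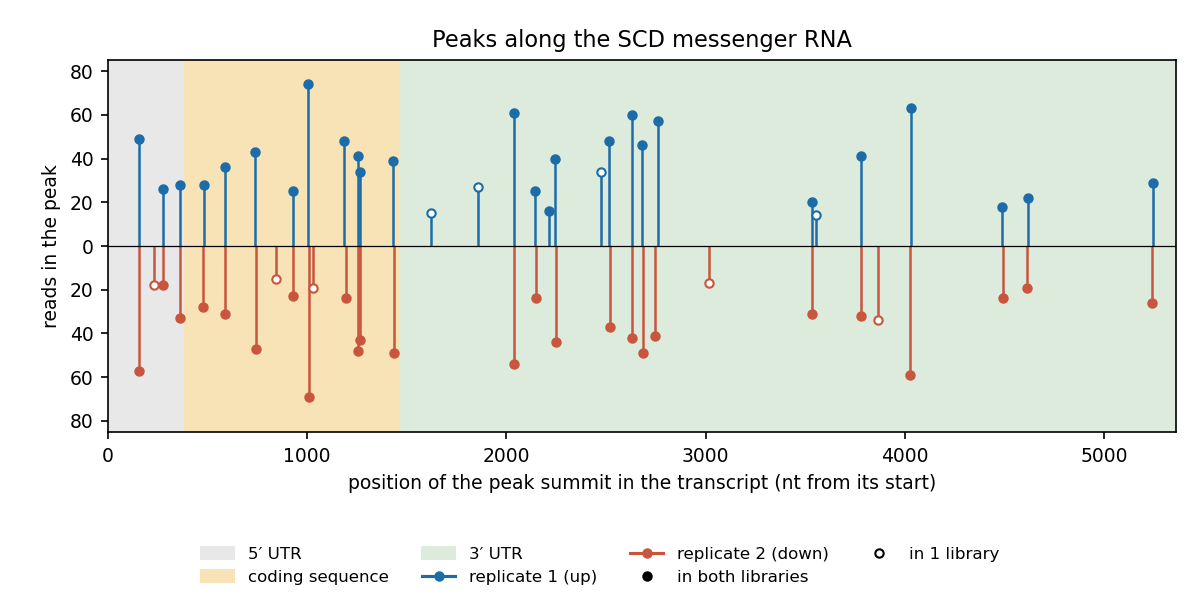
Reads in each SCD peak (vertical axis, replicate 1 upward and replicate 2 downward) against the position of its summit in the transcript in nt; shading marks the 5′ UTR, coding sequence and 3′ UTR, filled points are regions found in both libraries and open points regions in 1 library. The 13 filled regions of the 3′ UTR include 7 within 800 nt with a gap of 775 nt after them, and 9 regions are open.

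The 13 regions of the SCD 3′ UTR ran from 577 to 3785 nt after the stop codon, the last with its summit 116 nt before the transcript end. They were uneven along it: with the 3′ UTR split into 3 equal parts, 7 lay in the part nearest the stop codon, 3 in the middle and 3 in the last. The 7 were packed into 800 nt starting at the 577th nt, and the largest gap, 775 nt, ran from 1299 to 2074 nt. A further 9 regions of SCD were seen in 1 library only, 6 of them in the 3′ UTR, such as 100361936 to 100361962 with 34 reads in replicate 1 and 100363315 to 100363357 with 34 reads in replicate 2.

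The region at 100363469 to 100363519 held 63 and 59 reads in replicates 1 and 2. The one nearest the stop codon, 100361472 to 100361536, held 61 and 54. Next to it were 100361607 to 100361629 with 25 and 24, and 100361679 to 100361737 with 40 and 44. These pairs differed by less than their counting error.

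The packed group went on with 100361963 to 100362005, which held 48 and 37 reads. It was followed by 100362058 to 100362126 with 60 and 42, and by the directly adjoining 100362127 to 100362183 with 46 and 49. Its last region, 100362203 to 100362262, held 57 and 41. Adjoining regions may hold the same reads, so the packed regions are not independent counts.

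Beyond the gap, 100362994 to 100363027 held 20 and 31 reads, the largest ratio between libraries among the 13 regions (1.55). Then came 100363236 to 100363287 with 41 and 32, 100363952 to 100363976 with 18 and 24, and 100364079 to 100364104 with 22 and 19. The region nearest the transcript end, 100364701 to 100364737, held 29 and 26. Over all 13 regions, replicate 1 had more reads in 9 and replicate 2 in 4.

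SCD has copies elsewhere in the genome, and per the names of the deposited files reads mapping to a few loci were kept. Of its 25 regions found in both libraries, 11 shared at least 1 stretch of 25 nt with a transcript of another annotated gene. Most of the 11 shared only a part of their stretches, such as 3 of 27 in the strongest 3′ UTR region. Others were shared throughout, such as 100348225 to 100348267 with all 19. In the coding sequence, 8 regions shared such a stretch with the processed pseudogene SCDP1 (chromosome 17, 20784645 to 20785725), and 1 of these also with AC140172.1. In the 3′ UTR, 3 of the 13 regions, among them the strongest, shared one with the long non-coding RNA entry AC126365.1 (chromosome 17, 20788071 to 20789584). SCDP1 had peaks of its own with 119 and 96 reads, and AC126365.1 with 51 and 65, against 1107 and 1055 for SCD. Reads of such stretches cannot be assigned to 1 copy, and the interval between those entries on chromosome 17 was not searched. Without the 3 regions, an alternative chosen after seeing the data, 10 regions of the SCD 3′ UTR remained. Among the other 7 genes, 1 region found in both libraries shared such a stretch, in the coding sequence of IDI1.

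FASN (ENSG00000169710, chromosome 17, 82078333 to 82098332, minus strand) encodes fatty acid synthase, which makes the palmitate that SCD's usual substrates derive from. It held 228 reads in 23 peaks and 321 reads in 33 peaks. Unlike SCD, it had few reads in the 3′ UTR: the 3′ UTR of 810 nt held 3.07% of reads in replicate 1 and 0% in replicate 2, and no 3′ UTR region was found in both libraries. The coding sequence of 7536 nt held 80.7% and 92.8%, with 11 regions found in both.

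The strongest exonic region of FASN, at chromosome 17, 82084294 to 82084334, held 17 and 19 reads. A stronger one with 24 and 17 reads, 82089960 to 82089998, lay in an intron with its summit 243 nt from the nearest exon. Of the peak reads of FASN, 16.2% and 7.17% were intronic, in libraries labelled as cytoplasmic RNA. Of these 37 and 23 reads, 6 in each library lay in a peak that touches an exon, with its summit 1 or 3 nt outside it.

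HMGCS1 (ENSG00000112972, chromosome 5, 43289395 to 43313512, minus strand) encodes the cytoplasmic HMG-CoA synthase at the entry to the mevalonate pathway. It held 173 reads in 18 peaks and 155 reads in 17 peaks. Its 3′ UTR of 1736 nt held 77.5% and 66.5% of reads (mean 72.0% ± 7.78, SD, n = 2), more than the 49.5% of the transcript length it makes up. Per kb, the 3′ UTR held 77.2 and 59.3 reads and the coding sequence 25 and 30.7, so here the 3′ UTR led in both libraries.

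HMGCS1 had 6 regions in the 3′ UTR that were found in both libraries and 3 in the coding sequence. The strongest, 43289854 to 43289967, held 24 and 16 reads, and the one 77 nt after the stop codon held 13 and 20. The other 3′ UTR regions lay 797, 1410, 1494 and 1565 nt after the stop codon, so 4 of the 6, with the strongest 1205 nt after it, lay in the later part of the 3′ UTR.

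IDI1 (ENSG00000067064, chromosome 10, 1039152 to 1049170, minus strand) encodes the isomerase that makes dimethylallyl diphosphate, a building block of sterols and other isoprenoids. It held 105 reads in 12 peaks and 124 reads in 10 peaks. Its 3′ UTR of 1279 nt held 45.7% and 65.3% of reads (mean 55.5% ± 13.9, SD, n = 2), on either side of the 55.6% share of its length. One region, 1040155 to 1040225, held 26 and 44 reads out of the 48 and 81 reads of its 3′ UTR. The other regions found in both libraries held 7 and 10 reads at the stop codon and 7 and 6 reads 1131 nt after it. The peak at the stop codon was counted in the coding sequence in replicate 1 and in the 3′ UTR in replicate 2, with summits 1 nt apart.

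FDFT1 (ENSG00000079459, chromosome 8, 11795573 to 11839309, plus strand) encodes squalene synthase, the first enzyme committed to sterols. It held 155 reads in 14 peaks and 112 reads in 10 peaks, of which 12.9% and 8.04% lay in the 3′ UTR, below the 26.1% share of its length. Its coding sequence held 71.0% and 92.0%, with 7 regions found in both libraries against 1 in the 3′ UTR, 126 nt after the stop codon with 9 reads in each. In replicate 1, 16.1% of its reads were counted as intronic through 1 peak whose summit lay 1 nt outside an exon. That peak held 25 reads. In replicate 2 the same region held peaks of 11 and 14 reads, both counted in the coding sequence, so the coding shares were not counted alike. The strongest region of FDFT1 held 24 and 20 reads in the coding sequence, 354 nt from its start.

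SQLE (ENSG00000104549, chromosome 8, 124998497 to 125022283, plus strand) encodes squalene epoxidase, which catalyses an oxygen-requiring step after squalene. It held 151 reads in 15 peaks and 222 reads in 21 peaks. Reads lay along the whole message: 30.5% and 18.9% in the 5′ UTR, 54.3% and 55.9% in the coding sequence and 15.2% and 25.2% in the 3′ UTR, which at 338 nt is only 11.4% of the transcript. Both 3′ UTR regions found in both libraries were modest, with 11 and 14 reads 150 nt after the stop codon and 12 and 19 reads 307 nt after it. The strongest region of SQLE was in the coding sequence, 57 nt from its start, with 16 and 26 reads.

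INSIG1 (ENSG00000186480, chromosome 7, 155297776 to 155310235, plus strand) encodes the sterol-dependent retention protein of the SREBP system. It was second to SCD in reads, with 350 in 13 peaks and 388 in 17 peaks. Its 3′ UTR of 1965 nt held 83.1% and 69.3% (mean 76.2% ± 9.77, SD, n = 2), and the coding sequence 13.7% and 27.8%. Per kb, the 3′ UTR held 148 and 137 reads, near the values of the SCD 3′ UTR, while the coding sequence moved from 57.6 to 129 between libraries.

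The 7 regions of the INSIG1 3′ UTR found in both libraries ran from 40 to 1757 nt after the stop codon. The strongest, 155309106 to 155309179, held 53 and 57 reads. Those at 155309648 to 155309721 and 155309980 to 155310056 held 46 and 46, and 44 and 37. These 3 regions were of the size of the stronger SCD regions.

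SREBF2 (ENSG00000198911, chromosome 22, 41833079 to 41907308, plus strand) encodes the transcription factor of the set and had the fewest reads, 111 in 21 peaks and 85 in 16 peaks. Its value depended on the transcript model. With all coding transcripts, 64.9% and 72.9% of reads were assigned to 3′ UTRs, with 7 regions found in both libraries. In the main transcript alone these were 31.5% and 34.1%, close to the 31.5% share of its length, with 3 regions, because 4 regions lie in the coding sequence of that transcript and in a 3′ UTR of another coding transcript. Peaks here were weak, and the strongest, 41907108 to 41907189, held 11 and 14 reads 1472 nt after the stop codon. An intron of SREBF2 holds the microRNA gene MIR33A (chromosome 22, 41900944 to 41901012), whose product is known to repress cholesterol export genes, and it had 0 peaks in each library.

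**Figure D2:**
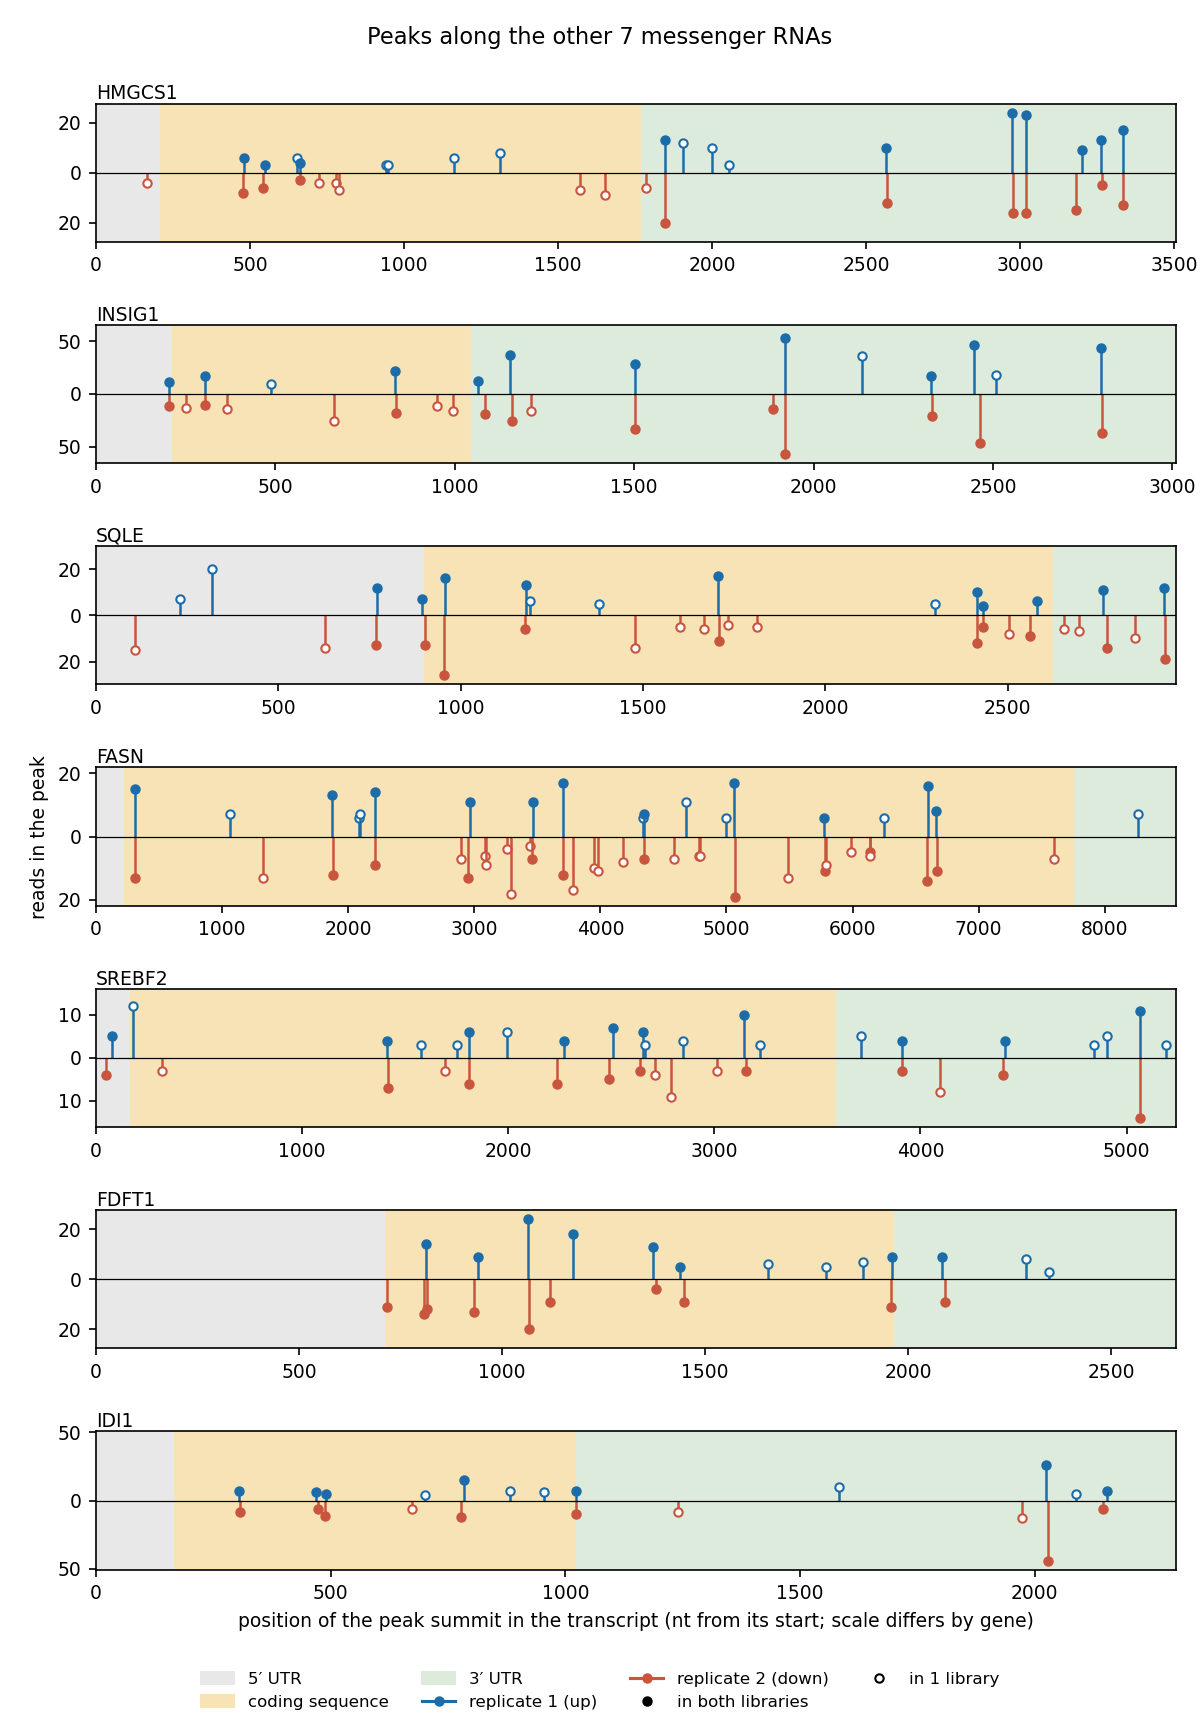
Reads in each peak of the other 7 genes (vertical axis, replicate 1 upward and replicate 2 downward) against summit position in 1 representative transcript in nt, with axes scaled per gene; shading marks 5′ UTR, coding sequence and 3′ UTR, and filled points are regions found in both libraries. HMGCS1 and INSIG1 carry most reads in the 3′ UTR, FASN and FDFT1 in the coding sequence; intronic peaks are not drawn.

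The libraries were then compared peak by peak. Of the peaks of the 8 genes, 95 of 146 in replicate 1 (65.1%, exact 95% interval 56.7 to 72.8) and 96 of 154 in replicate 2 (62.3%, 54.2 to 70.0) overlapped a peak of the other library. Over all protein-coding genes the shares were 59.0% and 54.1%, near those of the 8 genes. SCD, chosen by such peaks in its 3′ UTR, gave 26 of the 95 and 25 of the 96. The intervals treat peaks as independent draws, which neighbouring peaks of 1 gene are not, so nothing is read from the difference. SCD had 86.7% and 83.3%, FASN 56.5% and 39.4%, and the rest between 47.6% and 100%.

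Among the 93 regions of the 8 genes found in both libraries, the median ratio of replicate 1 to replicate 2 reads was 1 and 88 were within 2-fold. All 39 regions with at least 20 reads in a library were within 2-fold. The widest ratios, 0.455 and 3.33, belonged to weak regions of IDI1 and SREBF2. The 109 regions seen in 1 library were weaker. In SCD those 9 regions had a median of 18 reads against 44 for its regions in both, and in FASN the medians were 7 against 13.

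**Figure D3:**
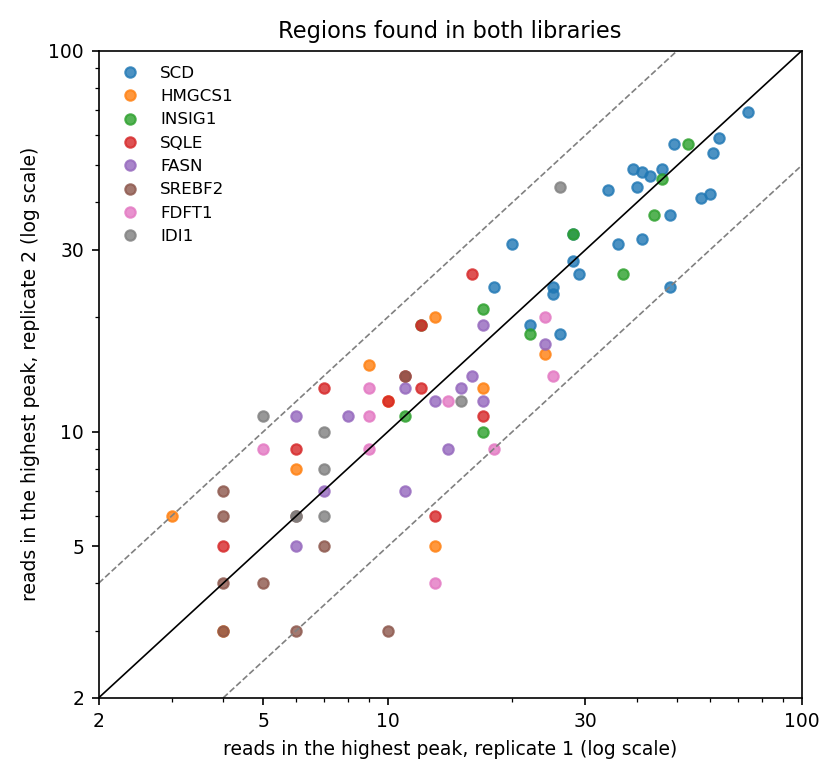
Reads in the highest peak of each region found in both libraries, replicate 1 against replicate 2, both axes on a log scale and coloured by gene; the solid line marks equal reads and the dashed lines a 2-fold difference. Of 93 regions 88 lie on or between the dashed lines, and most SCD regions sit at the top right.

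The weakest listed peak differed between the genes. The weakest SCD peak held 14 reads in replicate 1 and 15 in replicate 2, whereas FASN, HMGCS1 and SREBF2 had peaks of 3 reads in each. The same held across all protein-coding genes: the median of a gene's weakest peak was 3 reads for genes of 100 to 200 reads, 5 for 200 to 500 and 13 for 500 or more, in both libraries. Among genes of 500 or more reads the lowest value was still 3 in each library, so a high total does not always go with a high weakest peak. The limit used by the peak caller is not known. Any SCD sites weaker than its listed peaks are not seen, and counts of regions are not taken to be on 1 scale across genes.

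Among all protein-coding genes, 2 had more 3′ UTR regions found in both libraries than SCD, GNAS with 16 and MARS with 14, and NUCKS1 also had 13. This ranking is the one that chose SCD. Per kb of 3′ UTR over all transcripts, SCD had 3.33 regions, HMGCS1 3.46, INSIG1 3.48 and SQLE 5. With all listed peaks the latter 3 genes were thus at or above SCD. SREBF2 had 2.24, IDI1 1.47, FDFT1 1.43 and FASN 0. With 1 representative transcript IDI1 had 2.35 and SREBF2 1.82, which turns their order round. Without the weaker peaks HMGCS1 fell below SCD. It had 2.88 with a deposited p-value at or under 1e-05 and 2.30 with at least 10 reads. SCD, INSIG1 and SQLE kept their values under both limits. Among 7805 genes with at least 10 reads in each library and a 3′ UTR of at least 300 nt, the median was 0.50. The 90th percentile was 2.51, and 398 genes were denser than SCD. SCD lay in place 57 of 13209 by summed reads. The 7805 genes were not matched by reads to SCD or the other genes of the set, so nothing is read from the distance to the median.

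The share of 3′ UTR bases lying under peaks of both libraries gave a like picture. It was 21% in SQLE, 14.3% in HMGCS1, 14% in INSIG1, 11.2% in SCD, 7.19% in FDFT1, 6.57% in IDI1, 5.10% in SREBF2 and 0% in FASN. Pooled over all scored genes, those with at least 10 reads in each library and an annotated 3′ UTR, it was 2.20%. By summed reads the genes named here lay between place 57 (SCD) and place 2641 (SREBF2) of 13209. The scored genes were not matched to them by reads, so nothing is read from the distance to the pooled value.

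The share of reads in the 3′ UTR separated the 8 genes into groups, seen once the values were known, that did not overlap in either library. INSIG1, HMGCS1, SCD and IDI1 were all at 45.7% or more in each library, and SQLE, FDFT1 and FASN at 25.2% or less. SREBF2 joined the first group with all transcripts (64.9% and 72.9%) and lay between the groups with its main transcript. Within the first group the ranges of INSIG1 and HMGCS1 over the 2 libraries overlapped, although INSIG1 was higher in each library. The ranges of SCD and IDI1 also overlapped. Those of HMGCS1 (66.5% or more) and IDI1 (65.3% or less) did not. Over the 8 genes the median was 51.6% in replicate 1 and 57.9% in replicate 2. Over 8667 scored genes the medians were 22.9% and 21.7%, with upper quartiles of 47.7% and 45.5%.

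**Figure D4:**
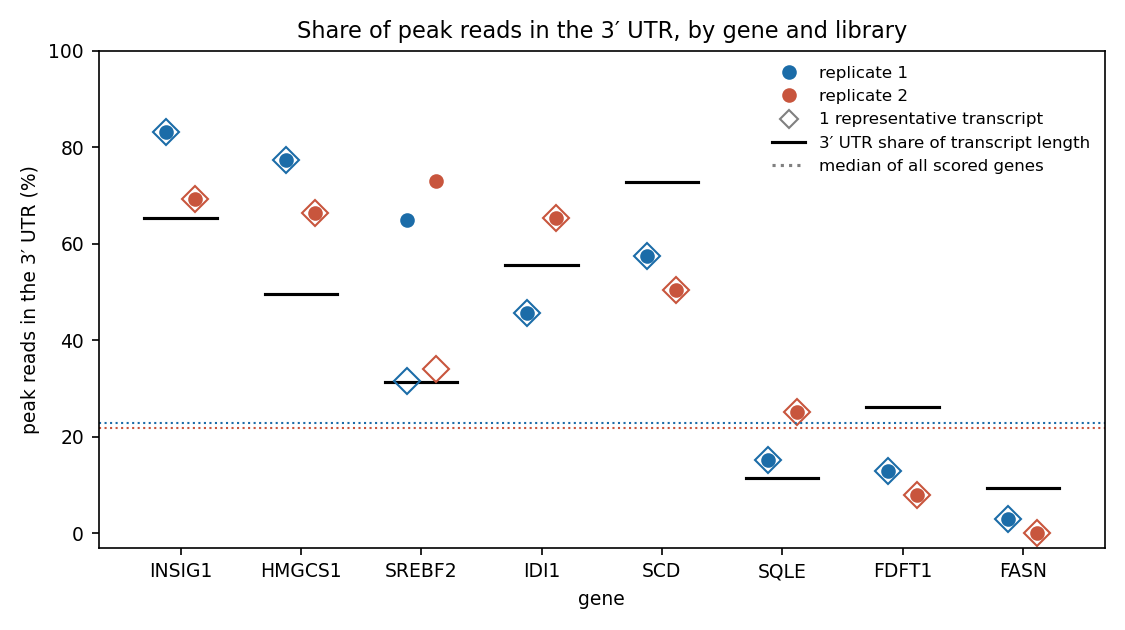
Share of peak reads in the 3′ UTR (%, vertical axis) for each gene, with a filled point per library (all transcripts), an open diamond for 1 representative transcript, a black bar for the 3′ UTR share of transcript length and dotted lines for the medians of all scored genes. INSIG1, HMGCS1 and SQLE lie above their bars in both libraries, and SCD, FDFT1 and FASN below theirs. SREBF2 moves to its bar with 1 transcript.

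Set against the length of the 3′ UTR, the order was different. INSIG1 (65.3% of transcript length), HMGCS1 and SQLE held more reads in the 3′ UTR than its length in each library, while SCD, FDFT1 and FASN held less. SCD was thus at once the gene with the most 3′ UTR regions among the 8 and one whose 3′ UTR held a smaller share of the reads than of the length.

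Base composition around the summits was taken in the same 30-nt windows. In the 13 SCD windows G made up 33.6% of bases, against 22.6% over its whole 3′ UTR. In 10645 windows of all scored genes these were 28.5% and 21.3%, so G was above the 3′ UTR level at summits in general. Of the SCD windows, 11 of 13 had at least 9 G, as did 47.0% of all windows. In HMGCS1 G was 28.3% at summits against 21.8%, while in INSIG1 it was 22.4% against 20.3% and in IDI1 21.1% against 18.5%. In the 3 windows of SREBF2 it was 25.6% against 25.7%, and in the 1 window of FDFT1 36.7% against 21.4%. C was below its 3′ UTR level in SCD (13.3% against 21.4%), HMGCS1, INSIG1, SQLE and IDI1, but above it in the 3 windows of SREBF2 (33.3% against 28.2%) and the 1 of FDFT1. Over all scored genes C was 13.0% against 20.5%, so it was below the 3′ UTR level at summits in general. Windows that lie close together share bases.

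The 7 motifs were searched on the sense strand only. Pumilio proteins, which recruit CCR4-NOT, bind UGUANAUA. No copy of it was found in the 3′ UTRs of SCD, HMGCS1, INSIG1, FASN or FDFT1. SQLE had 2, starting 152 and 164 nt after the stop codon, and both lay under peaks of both libraries, in 1 region of 11 and 14 reads. IDI1 and SREBF2 had 1 each, 652 and 1032 nt after the stop codon, under no peak. Over all scored genes, 20.0% of 4137 such elements lay under peaks of both libraries.

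The shorter word UGUA, which every Pumilio element contains, was more frequent. It was in 5 of 13 SCD windows, 3 of 6 of HMGCS1, 3 of 7 of INSIG1 and 3 of 3 of IDI1, and in 37.7% of all windows. Of 73 copies in the 3′ UTRs of the 8 genes, 24 lay under peaks of both libraries, as did 7.25% of 90550 copies in all scored genes. GGAGG was in 4 of 13 SCD windows and 2 of 6 HMGCS1 windows, and in 5.71% of all windows. Of its 7 copies in the SCD 3′ UTR 4 lay under peaks of both libraries, as did both copies in HMGCS1, none of the 9 in the other genes and 3.20% of 25913 copies in all. UGUA and GGAGG were chosen after the windows had been seen, and 7 of the 8 genes had a larger share of their 3′ UTR under peaks of both libraries than the pooled 2.20%.

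Other words gave small counts. The AU-rich pentamer AUUUA lay under peaks of both libraries at 4 of 38 copies in the 8 genes, against 2.26% of copies in all scored genes. The polyadenylation signal AAUAAA did so at 0 of 18 copies and the C-rich word CCUCCC at 0 of 13, where the shares over all scored genes were only 1.93% and 0.374%, so these counts of 0 show no difference. The seed match of miR-33, CAAUGCA, was not found in these 3′ UTRs. A match is only a run of letters, and a missing match does not speak to binding of a protein.

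Beyond the 8 genes, a list of 68 lipid genes was followed, of which 64 had a peak and 56 were scored. At least 1 3′ UTR region found in both libraries was present in 43 of the 56 (76.8%) and in 7 of the 8 genes, against 61.7% of all scored genes. SCD entered by such regions, and the 8 genes are part of the list, so nothing is read from that difference. The count fell to 26 when only peaks with a deposited p-value at or under 1e-05 were kept and to 21 for peaks of at least 10 reads. The median share of reads in the 3′ UTR was 39.6% and 34.6% over the list, which includes the 8 genes.

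In sterol synthesis, 15 of 20 scored genes had such a region. LBR, a nuclear envelope protein with sterol reductase activity, had 7, with 45.9% and 51.7% of its 405 and 389 reads in the 3′ UTR.

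In fatty acid synthesis, elongation and desaturation, 14 of 19 had one. ACSL3, a fatty acid activating enzyme, had 3, with 42.8% and 55.9% of its 229 and 222 reads in the 3′ UTR. The elongase ELOVL5 had 4, with 49.0% and 41.2%, and HACD3, a dehydratase of the elongation cycle, had 3, with 20.5% and 16.8%. The low values near that of FASN included TECR, the last enzyme of the elongation cycle, at 0% in both libraries. The 3′ UTR of TECR is only 107 nt, against 810 nt in FASN, so no likeness is read from these values.

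In regulation and uptake, 14 of 17 had one. SCAP, the escort of SREBP proteins, had 6, with 44.6% and 57.6% of reads in 3′ UTRs, and MYLIP, a ubiquitin ligase, had 2, with 71.7% and 64.7%. As in SREBF2, these values rested on other transcripts than the representative one, under which SCAP had 2 regions and MYLIP had 0. By Euclidean distance over the percents of reads in 5′ UTR, coding sequence and 3′ UTR of both libraries (6 values), the genes most like SCD among 23 with at least 100 reads in each library were SCAP (20.9), ACSL3 (21) and LBR (22.5). The place of SCAP rested on the transcript model: with 1 representative transcript, an alternative added after seeing the data, its distance was 88.3 and it was in place 19 of 23, while ACSL3 stayed at 21 and LBR was at 25.8.

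**Figure D5:**
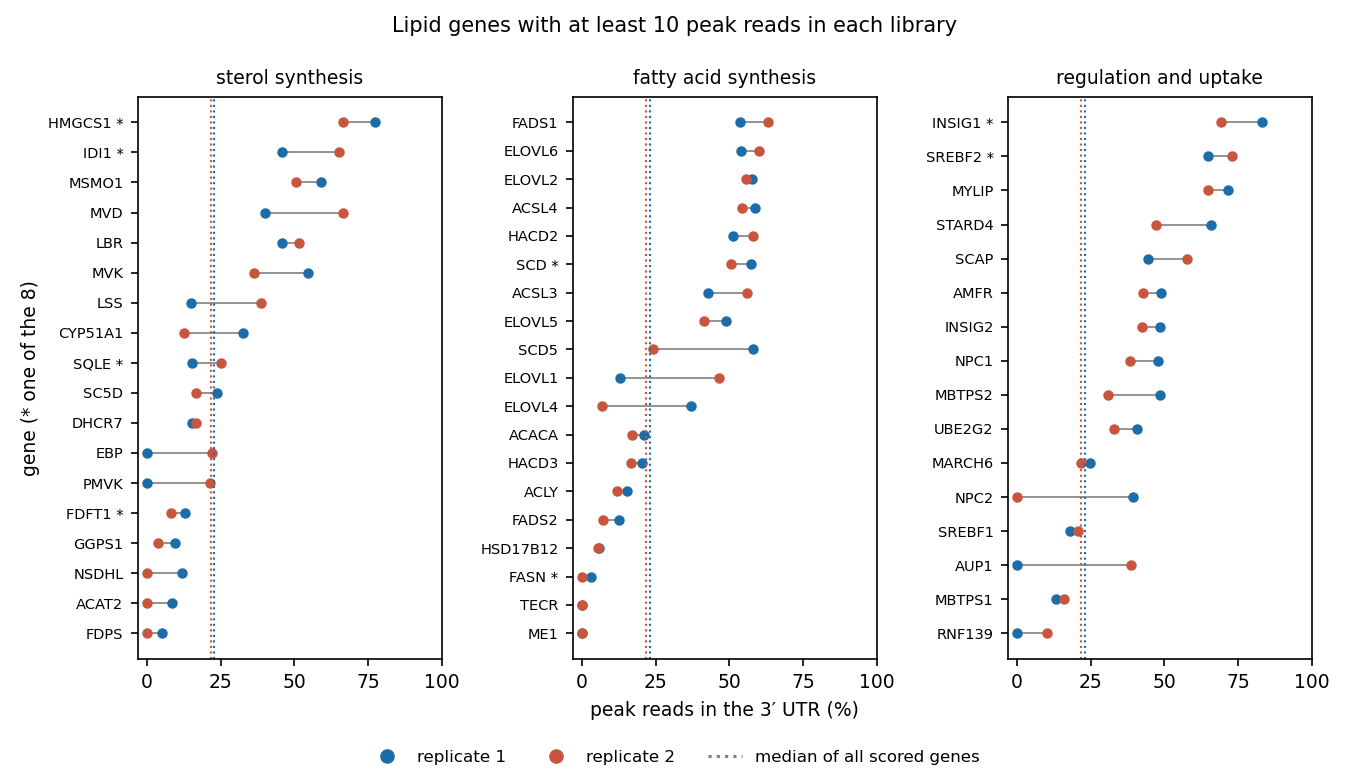
Share of peak reads in the 3′ UTR (%, horizontal axis) for 53 of the 56 scored lipid genes in each library, with points joined per gene, panels by role, asterisks on the 8 genes and dotted lines at the medians of all scored genes. HMGCS1 and INSIG1 head their panels, and FASN lies near 0 beside TECR, whose 3′ UTR is only 107 nt.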

How the data were processed

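The deposited files were 1 peak list per library. Per the submitters' processing notes, cutadapt 4.2, UMI-tools 1.1.4 and STAR 2.7.11 were used with GRCh38, with no role stated; per the names of the deposited files, peaks came from CLIPper after a read filter. CLIPper's version is not given in the sources used here, nor are its gene models. The score the authors deposited is a p-value per peak, with no adjustment stated, and all were under 0.05. The peak name holds the gene identifier and a read count of at least 3, not normalised.

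Of 20048 gene identifiers, 19811 matched GENCODE 29. Coordinates are 1-based. As summit, the midpoint of the thick interval was taken (4 nt wide in 94.1% of peaks). Summits were assigned to 3′ UTR, then coding sequence, 5′ UTR, other exon and intron over all coding transcripts, and alternatively to 1 representative transcript. Analyses used Python 3.11.15, numpy 2.4.6, scipy 1.17.1 and matplotlib 3.10.9 and were tested on simulated data.

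No test was made: there is 1 group, and the members and lists were chosen with earlier results of these data known. Named are the 8 genes, the strongest region of each, all 3′ UTR regions of SCD found in both libraries, per role the 3 other list genes with most reads in such regions, and the 3 genes nearest to SCD (3 list genes that this rule names are not reported here); TECR was named after its values were seen. Alternatives changed the overlap (50%), the p-value (1e-05), the reads (10), the summit, the region order, the transcript model and the library.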

Additional observations from a re-analysis of the deposited data

How the results depend on the processing

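SCD kept 13 3′ UTR regions found in both libraries with each other overlap, p-value limit, read limit, summit, region order and transcript model that was run, and 10 without the regions that share sequence with other annotated genes. The mean percent of the peaks of the 8 genes that overlapped a peak of the other library was 63.7, and became 61.0 with an overlap of at least 50% of the shorter peak, 72.3 with a deposited p-value at or under 1e-05 and 71.5 with at least 10 reads. The median 3′ UTR share over the 8 genes was 54.8%, and became 60.0% and 60.2% under the same limits on p-value and reads. It became 40.5% both with coding sequence before 3′ UTR and with 1 representative transcript, where SREBF2 fell from 68.9% to 32.8% and from 7 regions to 3. With 1 library it was 51.6% to 57.9%. The lipid genes with a 3′ UTR region in both libraries numbered 43, and 26 and 21 under the limits on p-value and reads, which leave fewer peaks. Under those limits SREBF2 and IDI1 (3 regions) had 1 region each, and FDFT1 had 0 with at least 10 reads.

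No paired analysis was possible because there is 1 group. With 2 libraries and no control, neither enrichment over RNA level nor biological spread can be measured, and sites under the lists' floor are not seen.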
